A study of Mus musculus with 10 samples.

Results

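RNase MRP and RNase P are a pair of related ribonucleoproteins, each built on its own noncoding RNA and on a largely shared set of proteins. The records analysed here were the genes for the RNA of RNase MRP (Rmrp), the RNA of RNase P (Rpph1) and the protein subunits Pop1, Pop4, Pop5, Pop7, Rpp14, Rpp30, Rpp38 and Rpp40. They were taken by gene name and Ensembl identifier, with no threshold on their values. These 10 names correspond to 11 of the 55487 gene records in each RNA-seq table, because Rmrp has both a ribozyme record and an overlapping lincRNA record, which were kept apart.

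The series maps R-loops in mouse E14 embryonic stem cells, an established line derived from the inner cell mass, and includes RNA-seq of the same line. Of its 10 samples in 6 groups, the 3 RNA-seq replicates were analysed. The other 7, which map R-loops, are not used here. E14 cells carried no engineered allele in the labels and were grown in medium with 15% FBS, LIF, a GSK inhibitor at 3 µM and a MEK1/2 inhibitor at 1 µM. Total RNA was extracted with Trizol, treated with Turbo DNase, depleted of rRNA with FastSelect and prepared with the NEB Ultra II Directional RNA kit. With a single condition there was no group to compare, so levels were compared between genes and each gene's spread was taken over the 3 replicates. Nothing in the labels says that these were separate cultures, so the p-values measure only the spread between the samples, which may be technical. The tables held 11420425, 6467405 and 5787357 estimated counts in replicates 1, 2 and 3, and 3 counts, taken as the detection floor, equal 0.263, 0.464 and 0.518 CPM (counts scaled to the library total). All 8 pluripotency markers were expressed, led by Nanog at a mean of 183 TPM (a level scaled by transcript length and to the same total in every library). Of 6 fibroblast feeder markers 1 reached a mean of 1 TPM (Thy1, 2.50 TPM) and 4 were at or below the floor in every replicate, and 0 of 8 markers of differentiated lineages reached it. Of these lineage markers 4 were at or below the floor in every replicate, and Sox1, the highest, had 122, 67 and 44 counts.

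RNase P is the ribozyme that removes the 5′ leader of precursor tRNAs, and its RNA carries the catalytic centre. RNase MRP, its eukaryotic relative, cleaves precursor ribosomal RNA in the nucleolus. Both RNAs are made by RNA polymerase III from promoters that lie mostly upstream of the start, and the proteins form modules that clamp around the RNA. Mutations of the human RNA of RNase MRP cause cartilage-hair hypoplasia.

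The RNAs themselves are shown first because the values of their records depend on sequence shared with other records. The Rmrp ribozyme record has 271 nt on the minus strand of chr4:43492788-43493058 (GRCm38), as a single exon. The lincRNA record of the same name spans chr4:43492783-43493063 and contains all of it, with a further 5 nt at each end. Those added bases are in capitals in the sequence of the lincRNA record, which is printed 5′ to 3′ together with the first 300 of the 319 nt of Rpph1 (minus strand, chr14:50807449-50807767, also a single exon). In Rpph1 the capitals mark the 233 nt, positions 36 to 268, that are also part of a transcript of the protein-coding gene Ccnb1ip1, which lies on the same strand.
Rmrp lincRNA record: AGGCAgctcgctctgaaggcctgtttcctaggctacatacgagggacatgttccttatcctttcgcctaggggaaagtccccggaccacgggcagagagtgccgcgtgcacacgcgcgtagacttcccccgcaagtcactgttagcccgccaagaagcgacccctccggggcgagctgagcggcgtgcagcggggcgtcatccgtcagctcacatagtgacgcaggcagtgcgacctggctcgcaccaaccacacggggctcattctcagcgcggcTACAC
Rpph1, positions 1 to 300: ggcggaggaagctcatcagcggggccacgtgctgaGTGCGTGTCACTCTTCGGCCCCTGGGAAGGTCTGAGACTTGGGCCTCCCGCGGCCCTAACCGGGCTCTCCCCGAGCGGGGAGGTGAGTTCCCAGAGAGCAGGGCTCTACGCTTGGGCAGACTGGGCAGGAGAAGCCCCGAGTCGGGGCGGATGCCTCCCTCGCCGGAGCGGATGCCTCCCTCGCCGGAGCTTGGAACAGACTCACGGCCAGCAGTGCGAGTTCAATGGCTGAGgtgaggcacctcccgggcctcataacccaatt
A read inside the lower-case part of the first sequence matches both Rmrp records. Only the 10 capital bases separate them. Rpph1 positions 184 to 225 are a direct tandem repeat of a unit of 21 nt.

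The RNAs of both enzymes were among the most abundant RNAs in the libraries. The Rmrp ribozyme record stood at 22303, 19323 and 26715 TPM in replicates 1, 2 and 3 (mean 22780.2 ± 3719, SD, n = 3), rank 9 of all records. Rpph1 stood at 13245, 12379 and 19154 TPM (mean 14926 ± 3687, SD, n = 3), rank 11. Replicate 3 was the highest of the 3 for both RNAs. With the lincRNA record they held 1.28%, 1.33% and 2.39% of all counts and 3.56%, 3.17% and 4.60% of all TPM. In bulk RNA, more cells with an RNA and more of it per cell cannot be told apart.

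Per length, the RNA of RNase MRP was above that of RNase P in every library. The ratio of Rmrp to Rpph1 in TPM was 1.68, 1.56 and 1.39 in replicates 1, 2 and 3, a mean log2 ratio of 0.62 ± 0.14 (SD, n = 3). The order was the same in 3 of 3 libraries, but a sign-flip permutation test over 3 values cannot go below p = 0.25, so none was run. The size of the ratio rests on the length used. Effective length, the number of positions where a fragment can start, was only 134, 125 and 139 nt for the Rmrp record against 182, 172 and 186 nt for Rpph1. In CPM, with no length scaling, the log2 ratio was 0.18 ± 0.13, with Rmrp at 7110.2, 7069.5 and 12143 CPM and Rpph1 at 5724, 6253 and 11705 CPM. Counts per full length gave 0.42 ± 0.13.

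**Figure D1:**
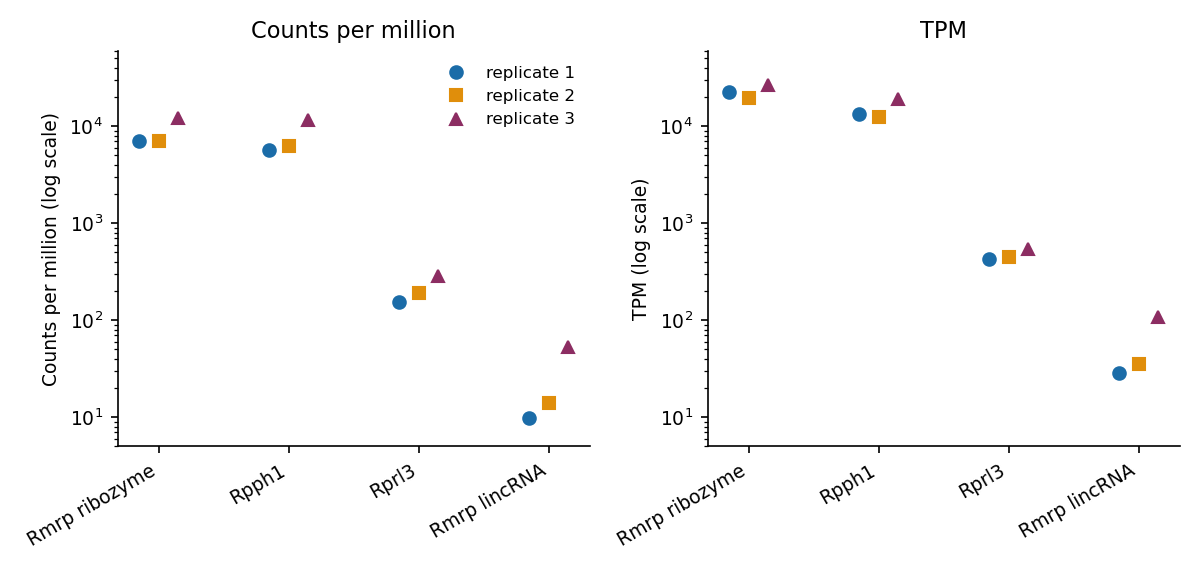
Levels of 4 RNA records in each of 3 RNA-seq replicates, as CPM (left) and TPM (right), both on log axes, with 1 point per replicate. Rmrp and Rpph1 stand at 5724 CPM or more in every replicate, the RNase P-like record Rprl3 between 156 and 283 CPM, and the Rmrp lincRNA record between 9.82 and 52.9 CPM.

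Nearly all Rmrp reads were assigned to the ribozyme record. It took 99.7% ± 0.157 (SD, n = 3) of the counts of both records. The lincRNA record took 0.138%, 0.196% and 0.434% (95% Wilson intervals 0.114 to 0.166%, 0.160 to 0.241% and 0.388 to 0.485%, counting error only). In TPM the lincRNA record stood at 28.7, 35.4 and 108.7, from 112, 90.4 and 306 estimated counts. Its replicate 3 lies above the other 2, and the interval of its share touches neither of theirs. The intervals of replicates 1 and 2 overlap.

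The lincRNA record was the 1 member record whose replicates differed by more than the trend over all genes. In edgeR's goodness-of-fit test over 12577 genes, 232 (1.84%) were called at a Benjamini-Hochberg adjusted p under 0.05, and in 0.652% replicate 3 was the one farthest from the rest and higher. At an unadjusted p under 0.05 it was 6.96% of genes, and 3 of the 11 member records (Rpph1 and both Rmrp records). The lincRNA record had an adjusted p of 2.63e-11, with a level in CPM 5.39-fold higher in replicate 3 than in replicate 1. Among genes with a mean length under 400 nt the share called was 27.5%, so a call in a gene this short was far more frequent than over all genes. The call was lost without replicate 3 (adjusted p = 0.999 in the same edgeR test) and held under the other 7 settings, with adjusted p from 4.90e-12 to 1.09e-04. How much of the difference follows from the division of shared reads between the 2 Rmrp records was not tested.

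The main Rmrp and Rpph1 records also had their highest CPM in replicate 3, without passing the test. The Rmrp ribozyme record was 1.71-fold and Rpph1 2.05-fold higher in CPM in replicate 3 than in replicate 1. Their adjusted p in edgeR's goodness-of-fit test was 0.398 for Rmrp and 0.101 for Rpph1. On simulated data this test recovered only 3 of 50 genes changed 2-fold in 1 replicate, so not passing it does not show equal levels. The changed genes were drawn at random from all genes tested. The recovery for records as abundant as Rmrp and Rpph1 is therefore not known. Rpph1 was called with a common dispersion (adjusted p = 0.0149 in edgeR) and with genes of effective length under 100 nt left out (0.0361), and after a smooth correction for gene length its adjusted p was 1.000. Its adjusted p ran from 0.0149 to 1.000 over the 8 alternatives.

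Replicate 3 differed from the others along gene length as a whole. Among genes with a mean count of at least 100, the median log2 deviation of replicate 3 from the mean of the 3 went from 0.12 in the shortest of 10 length groups (69 to 928 nt) to -0.27 in the longest. Replicate 1 went the other way, from -0.11 to 0.18. The deviations of Rmrp (0.52), Rpph1 (0.65) and the lincRNA record (1.42) in replicate 3 lay above the median of the shortest group. The part of gene length in these differences was tested only through the length correction.

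**Figure D2:**
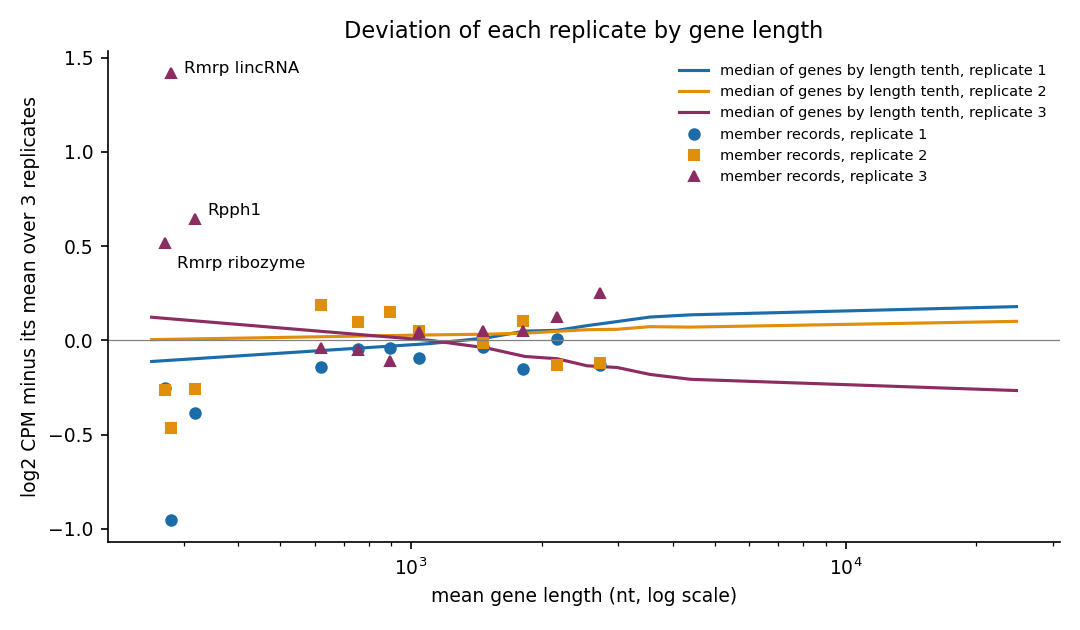
Deviation of log2 CPM from its mean over the 3 replicates (vertical axis) against mean gene length in nt (log axis). Lines join the medians of 10 length groups for each replicate and points are the 11 member records; in replicate 3 the 3 RNA records lie at 0.52, 0.65 and 1.42, above the line, which falls from 0.12 to -0.27.

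Genes that overlap or face the RNA genes showed no common pattern over the replicates. Ccdc107, a protein-coding gene on the opposite strand that overlaps 159 bp of the Rmrp ribozyme record, had 128, 62 and 167 counts, or 11.2, 9.59 and 28.9 CPM. It was called by edgeR's goodness-of-fit test with replicate 3 higher (adjusted p = 2.71e-04). One of its annotated transcripts contains 124 nt of Rmrp in antisense, and the strand setting of the counting is not given in the sources used here. The counts of Ccdc107 were whole numbers (within 0.005) in every replicate, so no divided read shows in them. The strand that its reads came from could not be checked. Ccnb1ip1, the gene that shares the capitals in Rpph1, had 5.59, 5.74 and 4.78 TPM and was not called (adjusted p = 1.000 in edgeR). Parp2, a DNA repair polymerase whose start faces that of Rpph1 at 74 bp, had 12.3, 9.08 and 7.03 TPM. Parp2 was not called (adjusted p = 1.000 in edgeR).

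Among annotated copies of the RNA of RNase P, 1 had estimated counts well above the floor. Of 17 ribozyme records with sequence similar to Rpph1, 2 had any count and 1, Rprl3 (chosen after its values were seen), was above the floor in every replicate. Rprl3 lies on the minus strand of chr8:3803069-3803358 and has 290 nt. Its sequence is printed because it shows how reads can be told from those of Rpph1: the capitals mark the 15 bases that differ from Rpph1 in the alignment, which covers the first 236 nt and lacks 21 bases of Rpph1, the length of the tandem repeat unit.
Rprl3: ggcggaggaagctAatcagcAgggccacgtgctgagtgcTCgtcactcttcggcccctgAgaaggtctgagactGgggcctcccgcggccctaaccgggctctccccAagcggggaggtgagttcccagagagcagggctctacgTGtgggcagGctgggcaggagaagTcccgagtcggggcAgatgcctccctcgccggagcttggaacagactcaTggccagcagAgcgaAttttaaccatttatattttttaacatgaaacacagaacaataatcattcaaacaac
Rprl3 had 1777, 1230.0 and 1636 estimated counts, or 428, 452 and 548 TPM. That is 2.72%, 3.04% and 2.42% of the counts of Rpph1 (mean 2.73% ± 0.313, SD, n = 3). Rprl2, which is about as similar to Rpph1 (85.6% identity against 86.0%), had 1 count in each replicate, under the floor of 3. Within the aligned 236 nt, reads from stretches without a capital or a gap match both Rpph1 and Rprl3, and the estimated counts divide them. How many reads match Rprl3 alone was not tested, and the floor does not cover reads of Rpph1 assigned to Rprl3. The rest of Rprl3, in lower case after position 236, lies outside the alignment.

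The sequence around the starts of both RNA genes was cut from the genome (GRCm38.p6), 250 bases before to 50 bases after the start. The starts are those of the Rmrp ribozyme record and of Rpph1 in GENCODE vM21. Type 3 promoters of RNA polymerase III carry a distal element, often with an octamer bound by Oct1, a proximal element and a TATA box. The octamer ATGCAAAT, searched on both strands, was present in both windows and is in capitals.
Rmrp start window, chr4:43493009-43493308, minus strand: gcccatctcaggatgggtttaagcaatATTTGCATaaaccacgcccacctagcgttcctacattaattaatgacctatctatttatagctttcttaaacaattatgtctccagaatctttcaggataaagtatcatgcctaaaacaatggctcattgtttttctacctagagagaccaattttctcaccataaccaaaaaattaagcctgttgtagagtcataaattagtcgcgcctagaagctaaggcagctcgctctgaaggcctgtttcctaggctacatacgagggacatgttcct
Rpph1 start window, chr14:50807718-50808017, minus strand: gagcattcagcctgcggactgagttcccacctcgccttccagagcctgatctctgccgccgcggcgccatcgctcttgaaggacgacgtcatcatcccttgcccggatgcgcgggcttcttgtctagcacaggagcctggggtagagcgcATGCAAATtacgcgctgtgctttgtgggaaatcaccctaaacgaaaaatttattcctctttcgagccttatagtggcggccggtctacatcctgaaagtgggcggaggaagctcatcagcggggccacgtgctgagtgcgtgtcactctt
The octamer lies on the reverse strand at -223 to -216 of Rmrp and on the forward strand at -100 to -93 of Rpph1. Windows of the same size for other genes, and those of the subunits, came from RefSeq's promoter table. The octamer occurs in 570 of all 32851 windows of that table (1.74%). The letters TATAA were found at -33 to -29 of Rpph1 and at -168 to -164 of Rmrp, on the reverse strand in both, and in 24.9% of all windows. Of the windows of 7 protein subunits, 0 held the octamer and 1 (Rpp14) held TATAA. No window was read for Pop1. A match describes letters and does not show binding.

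The protein subunits were expressed at levels near those of other expressed coding genes. All 8 had a mean of at least 1 TPM, against 44.1% of 21974 protein-coding genes, and so did all 11 records of the enzymes, against 19.8% of all genes. The median of the subunits' mean levels was 6.71 TPM, beside 5.73 TPM for the 9684 expressed protein-coding genes. Within libraries the median log2(TPM + 1) of the subunits was higher by 0.18 ± 0.09 (SD, n = 3), and with means in place of medians it was lower (-0.15), so no direction is given. In edgeR's goodness-of-fit test 0 of the 8 were called for spread between replicates, where 1.10% of 11221 protein-coding genes were. At an unadjusted p under 0.05 it was 0 of the 8. After the smooth correction for gene length, Pop1 had an unadjusted p of 0.0474 in the same edgeR test (adjusted p = 0.752). The counts of the subunits were whole numbers (within 0.005) in every replicate, so no divided read shows in them. Whole counts were usual: of all genes with counts, 17.9%, 17.7% and 17.2% were not whole in replicates 1, 2 and 3.

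Pop1 is the large scaffold that holds the RNA of either enzyme. It had 526, 300 and 348 counts, or 9.19, 5.36 and 6.78 TPM (mean 7.11 ± 1.94, SD, n = 3). In CPM the highest replicate was another one, with 46.1, 46.4 and 60.1. The deposited mean transcript length of Pop1 was 2249, 3094 and 2839 nt. In replicate 3 over replicate 1, Pop1 went from 1.31-fold in CPM to 0.738-fold in TPM. Rpp38, whose length is the same in every library, went from 1.10-fold to 0.793-fold. In replicate 2 over replicate 1, Pop1 went from 1.01-fold to 0.583-fold and Rpp38 from 1.11-fold to 0.906-fold. The part of transcript length in the order of Pop1's replicates was not tested. Rida, which starts 49 bp away on the opposite strand, had 11.2, 10.3 and 5.87 TPM.

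Pop7, known in human as RPP20, pairs with Rpp25 on the RNA and was the lowest subunit. It had 52, 34 and 25 counts, or 2.58, 2.37 and 1.71 TPM (mean 2.22 ± 0.454, SD, n = 3). The Poisson intervals (95%, counting error only) ran from 1.93 to 3.38, 1.64 to 3.31 and 1.11 to 2.52 TPM, so the 3 replicates overlapped. Its gene lies within the span of Epo on the same strand, and Epo had 3, 1 and 0 counts. Its partners were higher. Rpp25 had 13.5, 10.4 and 12.2 TPM, and its paralogue Rpp25l had 4.93, 6.02 and 5.90 TPM.

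The module of Pop5, Rpp14, Rpp30 and Rpp40 held ranks 5, 7, 1 and 2 of the 8 subunits by mean TPM, in that order. Rpp30, which with Pop5 resembles the protein partners of archaeal RNase P, was the highest of the 8, at 24.2, 19.4 and 16.6 TPM (mean 20.1 ± 3.81, SD, n = 3) from 383, 240 and 193 counts. Rpp40 had the smallest SD of the 8, at 9.21, 9.60 and 9.41 TPM (mean 9.41 ± 0.195, SD, n = 3). Pop5 had 6.85, 7.61 and 4.44 TPM from 86, 62 and 47 counts (mean 6.30 ± 1.66, SD, n = 3). Its gene overlaps Rnf10, a ubiquitin ligase gene on the opposite strand at 76.5, 53.8 and 32.0 TPM. Rpp14, a relative of Pop5 in fold, was lower at 3.35, 2.67 and 2.32 TPM (mean 2.78 ± 0.524, SD, n = 3). Rpp30 thus stood above each of its 3 module partners in every replicate.

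In the module of Pop4, Rpp38 and Rpp21, Pop4 was above Rpp38 in every replicate. Pop4, also known as RPP29, had 8.52, 8.63 and 7.07 TPM from 391, 264 and 228 counts (mean 8.07 ± 0.871, SD, n = 3). Rpp38, an RNA-binding protein of the L7Ae family, had 4.16, 3.77 and 3.30 TPM from 102, 64 and 57 counts (mean 3.74 ± 0.431, SD, n = 3). Rpp21, known from RNase P, had 11.1, 7.65 and 8.74 TPM. The ranges of Pop4 and Rpp21 overlapped, and that of Rpp38 lay below both.

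**Figure D3:**
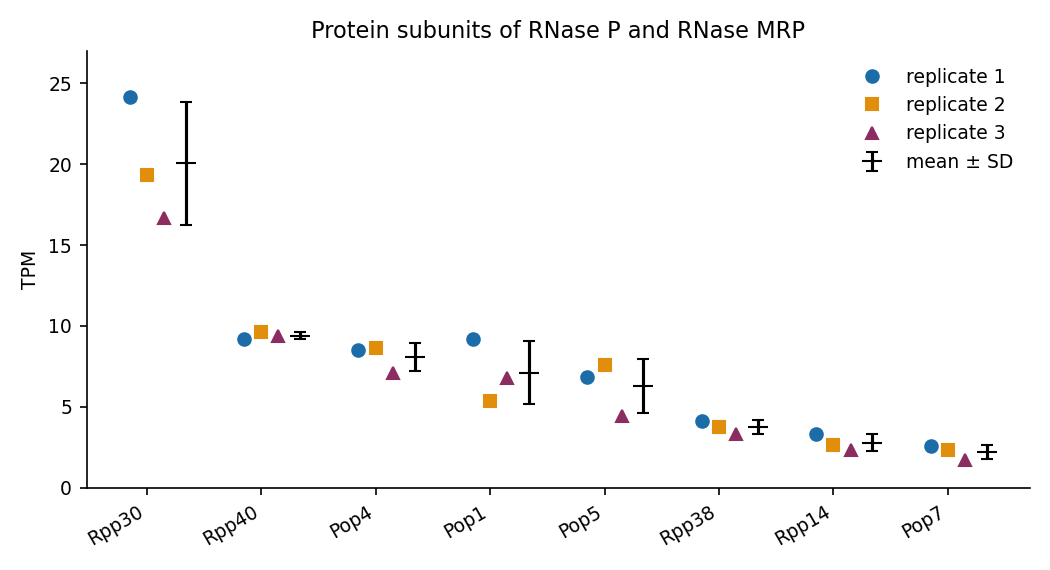
TPM of the 8 protein subunits in each of 3 RNA-seq replicates (points), with the mean and SD (black) beside them, ordered by mean. Rpp30 lies between 16.6 and 24.2 TPM, above all others, and Pop7 is lowest at 1.71 to 2.58 TPM.

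In order of mean TPM the subunits were Rpp30, Rpp40, Pop4, Pop1, Pop5, Rpp38, Rpp14 and Pop7. Of the 28 pairs, 26 had the same order in every replicate and in 23 the ranges over replicates did not overlap. The highest exceeded the lowest by a log2 ratio of 3.18 ± 0.13 (SD, n = 3). Rpp30 was above Rpp40 by 1.07 ± 0.29 on the log2 scale, and Rpp40 above Pop4 by 0.23 ± 0.16 with ranges apart. Neighbours that did not separate were Pop4 and Pop1, Pop1 and Pop5, Rpp38 and Rpp14, and Rpp14 and Pop7, whose ranges overlapped. Pop4 and Pop5 overlapped as well.

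The order depended on the transcript length assigned to each gene. Divided by the length of its longest coding transcript in place of the deposited mean length, Rpp40 went from rank 2 to rank 6 of the subunits, at 8.28 ± 0.242 CPM per kb (SD, n = 3). Its longest coding transcript has 4380 nt, while the deposited mean length was 1702, 1382 and 1308 nt. Rpp30 stayed highest at 34.5 ± 2.36 CPM per kb and Pop7 lowest at 5.55 ± 0.626. This scaling was chosen after seeing the data. By CPM, which favours long transcripts, Pop1 came first and Rpp30 was at rank 4.

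**Figure D4:**
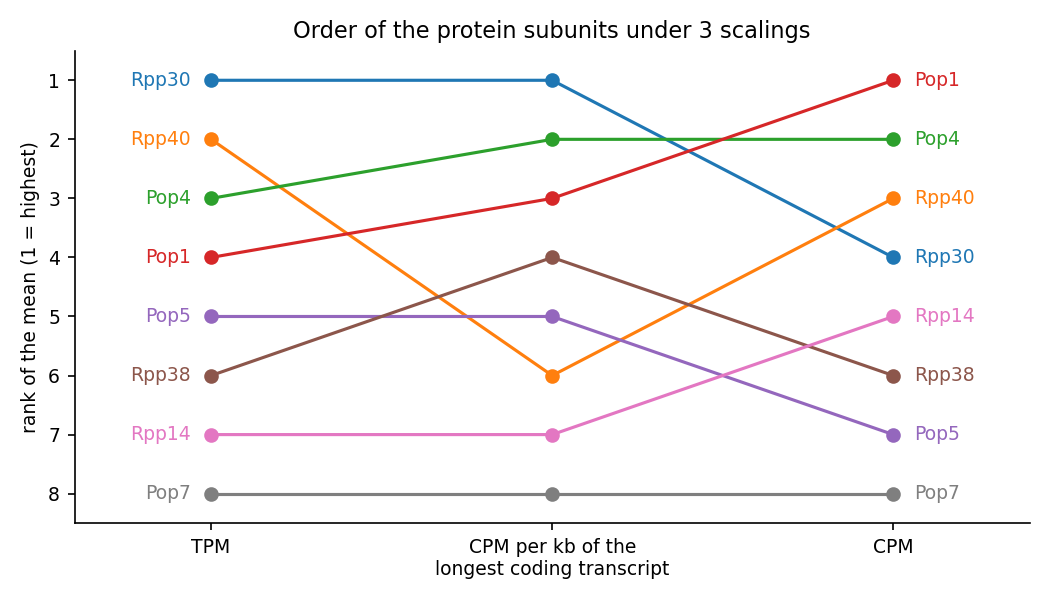
Rank of the 8 protein subunits by mean over 3 replicates under 3 scalings: TPM, CPM per kb of the longest coding transcript, and CPM (rank 1 is the highest). Pop7 is at rank 8 in all 3, Rpp30 goes from 1 to 4 in CPM, and Rpp40 falls from 2 to 6 in the middle column.

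The deposited mean length also bounds how much of each gene's RNA was assigned to coding transcripts. The mean is weighted by transcript share, so it limits the share of the transcripts annotated as coding, given their lengths. For Pop1, whose 6 annotated transcripts include 2 coding ones, the coding share was 55.9 to 64.4% in replicate 1, 88.4 to 93.7% in replicate 2 and 78.6 to 84.9% in replicate 3. For Pop4 it was 76.8 to 81.4%, 70.9 to 76.7% and 76.9 to 81.5%. Pop5 was at most 34.1%, 30.5% and 48.1% coding, with the rest on shorter processed or intron-retaining transcripts or on a nonsense-mediated decay transcript. Rpp30, with the highest TPM, was at most 45.4%, 55.6% and 48.3% coding. In Pop5, therefore, most transcripts in every replicate were assigned to kinds not annotated as coding, and in Rpp30 this held in replicates 1 and 3.

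Rpp40, Rpp14 and Pop7 differ in which coding transcript was used. Rpp40 was at least 52.3%, 63.1% and 65.5% coding, but its longest transcript can have held at most 34.8%, 26.9% and 25.1%. Rpp14 has coding transcripts of 2401 and 477 nt, and the longer took 85.9%, 78.3% and 100%. Pop7 has coding transcripts of 988 and 881 nt, and the longer took 0%, 21.0% and 21.3%. Rpp38 has 1 annotated transcript of 1042 nt. These shares follow from the authors' estimates, which for Pop7 rest on 25 to 52 counts, and the error of the assignment is not known.

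**Figure D5:**
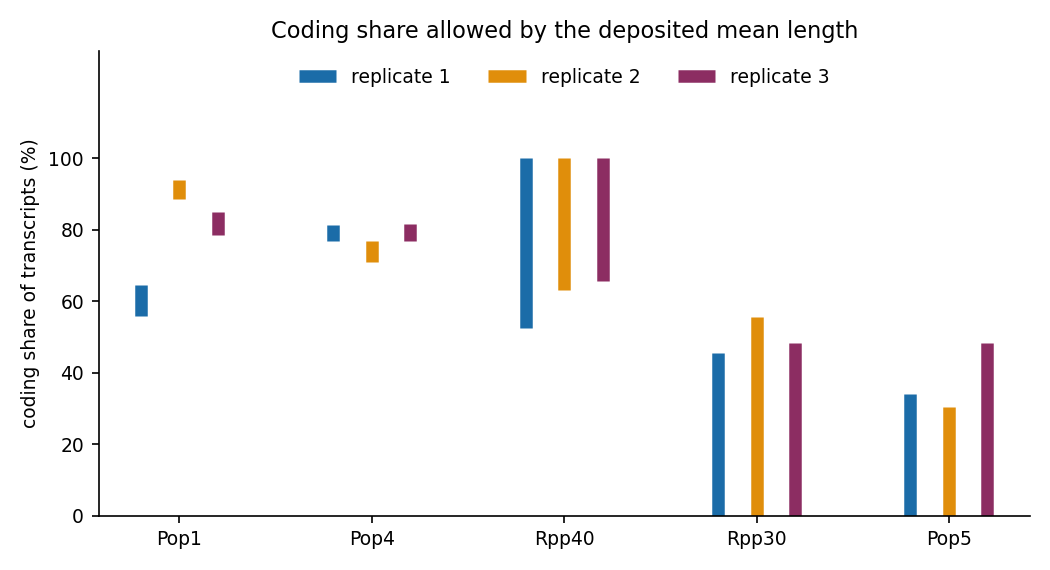
Range of the coding share of transcripts, in percent, that the deposited mean length allows for 5 subunits in each of 3 replicates (bars from the lowest to the highest possible share). Pop1 and Pop4 lie above 55.9%, while Rpp30 and Pop5 cannot exceed 55.6% and 48.1%.

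Both RNA components stood far above the messenger RNAs of their protein partners. Rpph1 exceeded the median subunit by factors of 1724, 1909 and 3414 in TPM in replicates 1, 2 and 3, a log2 ratio of 11.13 ± 0.53 (SD, n = 3). Rmrp exceeded it by factors of 2902, 2980 and 4762. Without length scaling the log2 ratio for Rpph1 was 8.23 ± 0.54. These are RNA levels: the amounts of subunit protein were not measured.

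Genes of the same pathways were expressed alongside. Mitochondria use a separate RNase P made of protein only, and all 3 of its subunits passed a mean of 1 TPM. Hsd17b10, a dehydrogenase that is part of it, had 17.1, 15.2 and 16.3 TPM. The methyltransferase Trmt10c had 5.15, 5.33 and 4.04 TPM, and the nuclease subunit Prorp (annotated as 1110008L16Rik) had 6.32, 4.15 and 3.68 TPM. The nuclease thus lay in the range of the nuclear subunits.

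Of 8 genes for the later steps of tRNA maturation, 7 passed a mean of 1 TPM. Trnt1, which adds the terminal CCA, was the highest at 38.4, 34.1 and 31.7 TPM, followed by Ssb, the La protein that binds the ends of new polymerase III transcripts, at 35.0, 29.7 and 30.4 TPM. Elac2, which trims tRNA 3′ ends, had 13.3, 7.11 and 9.36 TPM, whereas its short relative Elac1 had 0.62, 0.48 and 0.33 TPM. The tRNA splicing genes Tsen15, Tsen34, Tsen54 and Clp1 had means from 3.69 to 10.6 TPM. Trnt1 and Ssb were above the nuclear subunits in every replicate, including Rpp30.

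All 10 factors of type 3 promoters passed a mean of 1 TPM. Of the complex that binds the proximal element, Snapc1 had 1.74, 1.16 and 1.33 TPM and Snapc5 had 1.52, 1.27 and 1.68 TPM. These were the lowest mean levels of the list, and their ranges overlapped. The highest mean was that of Tbp, the TATA-binding protein, at 18.0, 12.3 and 12.5 TPM. Brf2, the initiation factor of these promoters, had 7.73, 4.56 and 4.07 TPM, and Pou2f1, which encodes the octamer-binding Oct1, had 9.33, 8.84 and 4.98 TPM. In edgeR's test 0 genes of the lists of other subunits, mitochondrial RNase P, tRNA factors and promoter factors were called for spread between replicates, or passed an unadjusted p under 0.05. With 1.84% called over all genes, a count of 0 in lists this short does not set them apart.

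Other small noncoding RNAs set a scale for Rmrp and Rpph1. Rn7sk, which holds the elongation factor P-TEFb inactive, had 60264, 53428 and 67105 TPM, above Rmrp in every replicate. Like Rmrp and Rpph1 it had its highest CPM in replicate 3, at 27755, 28861 and 43644 CPM, without being called (adjusted p = 0.822 in edgeR). The Y RNAs Rny1 and Rny3 had means of 44085 and 110975 TPM, on transcripts of 112 and 102 nt for which the length correction is very large. The telomerase RNA Terc had 34.6, 0 and 46.6 counts, which puts it far below both RNAs. Its counts in replicates 1 and 3 were not whole numbers, so part of its reads may have been divided with another record.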

How the data were processed

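E14 embryonic stem cells were sequenced in 3 RNA-seq replicates. The submitters' processing notes name STAR, RSEM and the build mm10 (GRCm38), and versions, annotation release and strand setting are not given in the sources used here. Per the file headers, the authors deposited an estimated count (expected count), TPM and FPKM for each of 55487 genes, with length and effective length. FPKM, as deposited, was not used. Group and replicate number of each sample come from its title. The members and lists were chosen with earlier results of these data known. Genes named are the members, the listed genes and the genes that overlap a member or start within 1000 bp of it on the opposite strand. A listed gene is not reported here.

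Identifiers were matched to GENCODE vM21 (55227 of 55487). Counts were rounded for edgeR 4.0.16 in R 4.3.3, whose goodness-of-fit test used TMM, filterByExpr, an intercept-only design, the trended dispersion and Benjamini-Hochberg adjustment over all genes tested. On simulated data the test recovered 3, 46, 50 and 49 of 50 genes changed 2-, 4-, 8- and 16-fold in 1 replicate, with 1 false call among 12145 unchanged genes. The simulated counts were negative binomial with the trended dispersion that the test itself assumes, and had no trend with gene length. Their rate of false calls therefore does not describe the real libraries. CPM is the count scaled to the library total. Coding shares are the limits that the deposited mean length sets over the transcripts' annotated lengths. Copies were found with blastn 2.17.0. PCR copies of a molecule are not independent, so intervals and floors describe counting error alone. Depth ranged from 5787357 to 11420425 counts. Alternatives changed scaling, normalization (DESeq2 1.42.0 size factors), filters, pseudocount, dispersion and replicates used. Python 3.11.15, pandas 2.3.3 and matplotlib 3.10.9 were used for the rest.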

Additional observations from a re-analysis of the deposited data

How the results depend on the processing

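Of 48 alternatives over 7 results, 33 kept the value within its limits, 14 moved it and 1 reversed it, and 2 of the 48 were chosen after seeing the data. A value was kept if it changed by less than the SD over replicates of the main result. A count was kept within a fixed fold range, which takes in the fall from 11 to 8 expressed records at 5 TPM. The cause of the changes was not tested. The number of member records varying between replicates went from 1 to 2 with a common dispersion and with genes of effective length under 100 nt left out (Rpph1 added), and ranged from 0 to 1 when a replicate was left out. The log2 ratio of Rmrp to Rpph1 went from 0.62 to 0.18 in CPM and to 0.42 per full length, and ranged from 0.56 to 0.70 with a replicate left out. The median of the subunits against expressed coding genes went from 0.18 to 0.016 in CPM, 2.37 with no filter, 0.51 with genes of effective length under 100 nt removed before scaling, and -0.15 with the mean in place of the median. The log2 ratio of the highest to the lowest subunit went from 3.18 to 2.70 with 1 TPM added, 3.43 in CPM and 2.64 per kb of the longest coding transcript. The log2 ratio of Rpph1 to the median subunit went from 11.13 to 8.23 in CPM, 10.52 per full length and 12.02 per kb of the longest coding transcript. All 11 member records passed a mean of 1 TPM in every setting but a minimum of 5 TPM, where 8 did.

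No paired analysis was possible because the RNA-seq group is the only one analysed here, and its replicate numbers pair with no other sample used. Genes of effective length under 100 nt hold 60.3 to 65.8% of all TPM, so TPM of every other gene depends on their estimates. At 5787357 to 11420425 counts, the counting interval of Rpp14 in TPM overlaps those of Pop7 and Rpp38 in every replicate.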
